A study of Arabidopsis thaliana with 12 samples.

Results

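A group of Arabidopsis thaliana transcripts stood higher with abscisic acid (ABA) and lower under supplemental far-red light. The members were 90 of the 22746 probe sets of the array. They were chosen by measured values: the ABA effect averaged over both light conditions had to be at least 0.35 log2 units, the far-red effect averaged over both ABA levels -0.3 or lower, and the highest group mean at least 5. The rule set aside 3 further genes within these limits, COR15B, COR47 and AT1G62510. Because the limits were set on the averaged ABA and far-red effects, those effects and the pairwise differences built from them are given as a description, with no test. The interaction is the ABA effect under far-red minus the ABA effect in white light. It does not enter the averaged effects and was tested. The limit on the highest group mean is not free of it, since a single group mean contains part of the interaction. That mean was under 6 in 14 members, and the part of this limit in the result was not tested.

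ABA is a hormone of drought and seed maturation. Its receptors block a class of protein phosphatases, which releases kinases that activate transcription factors at stress-responsive genes. Supplemental far-red mimics the shade of a leaf canopy. Under it phytochrome B returns to its inactive form, and the transcription factors it holds back promote stem and petiole growth.

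Aerial parts were sampled from plants 10 days old. They had grown for 9 days at 22 °C without a dark period before a treatment of 24 hours. The white-light group was the mock-treated control without ABA, white light with ABA added the hormone, the far-red group received white light with supplemental far-red and no ABA, and far-red with ABA received both. The labels name no ecotype, mutant or transgene, and print the ABA dose as 1 mM and the light intensities as 80 for white and 6 for far-red in mmol per square metre and second. Whether these prefixes are meant as printed could not be checked. Each of the 4 groups had 3 arrays, 12 in all, which the labels call biological replicates, so that p-values measure the spread between them. Values are log2 expression units. RNA was taken from whole aerial parts, so fewer cells of a type and less RNA per cell cannot be told apart.

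The share of probe sets called present lay between 60.6% and 67.2% over the arrays and the array medians between 5.45 and 5.62 log2 units. Of 10 listed genes of photosynthetic tissue 3 had a probe set with a single name in the annotation used (RCA, LHCB4.1 and PRK). They were called present on all 12 arrays. Of 10 root genes 3 had one (AGL42, EXPA7 and EXPA18) and were called present on 0 arrays. White light replicate 2 stood apart in the members: 77 of the 90 lay below their own group mean on that array, against 56.1% of all probe sets, and the mean over the members was 0.15 log2 units below that of its group. White light replicate 3 stood on the other side, with 19 of 90 below and a mean deviation of 0.11. The mean level of the members was 7.19, 7.0 and 7.27 in white light, 7.66, 7.66 and 7.61 with ABA, 6.46, 6.43 and 6.55 under far-red, and 7.24, 7.22 and 7.23 under far-red with ABA. Without white light replicate 2, the median averaged far-red effect of the members was -0.47 in place of -0.45 and their median averaged ABA effect 0.50 in place of 0.54.

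**Figure D1:**
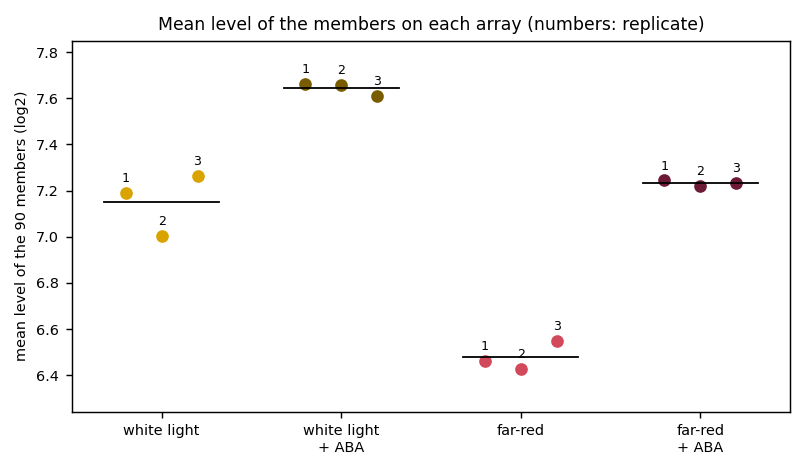
Mean log2 level of the 90 members on each of the 12 arrays, with points numbered by replicate and a line at the mean of each group. The far-red arrays lie lowest (6.43 to 6.55), the arrays with ABA in white light highest (7.61 to 7.66), and white light replicate 2 (7.0) below the other white-light arrays.

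Of the 90 members, 45 carried the name of 1 gene, 3 were listed with 2 genes and are not named, and 42 were not listed in the annotation used and are unnamed here (46.7%, against 38.4% of all probe sets). The averaged ABA effect ran from 0.35 to 2.28 with a median of 0.54, and 5 members reached 1 log2 unit or more. The averaged far-red effect ran from -1.98 to -0.30 with a median of -0.45, and 6 members were at -1 or lower. Called present on all 12 arrays were 71 members, and each of the other 19 was called present on at least 1. Probe sets marked as shared between transcripts numbered 4 among the members and included the 3 listed with 2 genes.

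**Figure D2:**
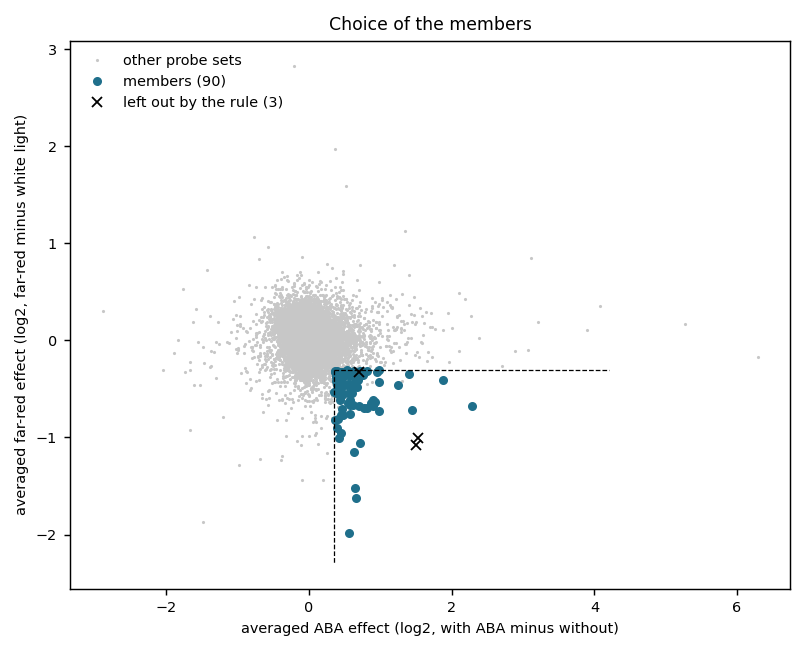
Averaged ABA effect (horizontal, log2) against averaged far-red effect (vertical, log2) for all 22746 probe sets, with the 90 members, the 3 genes left out by the rule and dashed lines at the limits of 0.35 and -0.3. The members fill the lower right corner by construction, and those nearest the limits differ little from the probe sets just outside.

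Just inside the ABA limit lay 3 members at 0.35 to 0.36, the last of them CCL, and just outside it AT3G06780 at 0.35, AT2G24550 at 0.34 and AT4G13800 at 0.33. At the far-red limit AT3G56360 and 2 unnamed members lay inside, at -0.30 to -0.31, and 3 unnamed probe sets outside, at -0.30 to -0.29. At the limit on level AT1G56320 and 2 unnamed members, with highest group means of 5.06 to 5.15, were kept, and AT1G70420 and AT1G28260 at 4.92 and 4.79 were not. Of the genes set aside, COR15B had averaged effects of 1.5 for ABA and -1.08 for far-red, AT1G62510 1.52 and -1.01, and COR47 0.70 and -0.33.

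The 4 groups stood in a like order in most members, an order that the rule itself constrains. White light with ABA was the highest group in 87 members and far-red alone the lowest in 89. The middle places differed: far-red with ABA lay above white light in 60 members and below it in 30. The median difference of far-red with ABA minus white light was 0.07 log2 units, with a range of -1.42 to 1.61, and it was under 0.2 in size in 50 members. Among the named members the difference was largest for AT1G73480 (0.72) and AT1G76960 (0.56) and lowest for AT3G62550 (-0.59) and AT1G01240 (-0.50). The 3 arrays with ABA all lay above the 3 without it in 62 members in white light, where 12.8% of all probe sets did so, and in 82 under far-red (12.3% of all). The 3 far-red arrays all lay below the white-light arrays in 71 members without ABA (10.7% of all) and in 61 with ABA (9.83% of all). The rule used these contrasts, so nothing is read from the shares.

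Dehydration and general stress were represented by 4 named members. AT2G23120, of the late-embryogenesis-abundant proteins that protect drying cells, read 9.96, 9.62 and 9.84 in white light, 10.43, 10.32 and 10.55 with ABA added, 9.32, 9.25 and 9.42 under far-red and 10.18, 10.24 and 10.24 under far-red with ABA. All 4 pairs of groups that differ in 1 factor were free of overlap in this gene, and it was 1.54-fold higher with ABA in white light and 1.85-fold higher under far-red. DI19, a drought-induced zinc-finger protein, read 10.35, 9.98 and 10.33 in white light, 10.76, 10.52 and 10.55 with ABA added, 9.67, 9.58 and 9.98 under far-red and 10.34, 10.21 and 10.48 under far-red with ABA. Its ABA groups did not overlap with the groups without ABA in either light, whereas white light replicate 2 and far-red replicate 3 met at 9.98. AT3G62550, of the universal stress protein family, read 10.68, 9.89 and 10.73 in white light, 10.76, 10.57 and 10.85 with ABA added, 9.24, 9.20 and 9.46 under far-red and 9.82, 9.95 and 9.76 under far-red with ABA. Here the far-red groups lay apart from the white-light groups, 2.19-fold lower without ABA and 1.84-fold lower with it, and the ABA groups overlapped in white light. AT4G30650, of a family of small membrane proteins of the cold and salt response, had an averaged ABA effect of 0.57 and an averaged far-red effect of -0.66.

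A loose group of walls, membranes and lipids took in 7 named members, some placed by family alone. A place in this group does not state where a protein acts. EXLA1 (AT3G45970), an expansin-like protein, read 6.90, 6.06 and 6.79 in white light, 7.33, 7.03 and 7.13 with ABA added, 5.63, 5.6 and 5.75 under far-red and 6.69, 6.8 and 6.61 under far-red with ABA. White light replicate 2 was the low array of its group, and the 3 white-light arrays lay below those with ABA and above those of far-red. CSLA01 (AT4G16590), of the cellulose-synthase-like family that makes mannans, read 4.98, 4.62 and 4.88 in white light, 5.66, 5.61 and 5.49 with ABA added, 4.50, 4.49 and 4.33 under far-red and 5.32, 4.79 and 4.95 under far-red with ABA. It was called absent on every array without ABA and present on 0 of 3 under far-red with ABA and on 2 of 3 in white light with ABA. In white light with ABA it was 1.70-fold higher than in white light and 2.22-fold higher than under far-red. No value was low enough to be raised for a bound. These folds are thus ratios of the measured means, against groups called absent, and their sampling error is not included. AT1G73480, of the alpha/beta hydrolases, had the largest averaged ABA effect of the named members (1.44) and read 6.05, 6.01 and 6.41 in white light, 7.11, 7.39 and 7.54 with ABA added, 4.64, 5.59 and 5.32 under far-red and 6.81, 6.97 and 6.85 under far-red with ABA. The far-red arrays were widely spread, and none of them reached any array of another group.

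AT4G09760, a choline kinase of phospholipid synthesis, read 6.90, 6.37 and 7.0 in white light, 7.25, 6.92 and 7.08 with ABA added, 5.74, 5.50 and 6.01 under far-red and 6.65, 6.42 and 6.70 under far-red with ABA. It was 2.02-fold lower under far-red without ABA and 1.41-fold lower with it, with no overlap in either case. AT3G22620, of the lipid-transfer family, had ABA effects of 0.52 in white light and 0.92 under far-red. It was called present on 0 of 3 white-light arrays, and its far-red effects were -0.52 without ABA and -0.12 with it. Without replicate 3 of white light with ABA its ABA effect in white light was 0.18 and its far-red effect with ABA 0.22. Its averaged far-red effect was then -0.15 in place of -0.32, outside the limit of -0.3. AT4G16260, a glycosyl hydrolase of the glucanase type, had far-red effects of -0.79 without ABA and -0.37 with it. In AT4G16260 a single array set the latter direction: white light with ABA read 4.45, 5.22 and 6.43, and without replicate 3 of that group the far-red effect with ABA was 0.17 and the averaged ABA effect 0.18 in place of 0.45. The tetraspanin TET3 had averaged effects of 0.46 for ABA and -0.39 for far-red.

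Enzymes and transporters of small molecules made up 8 named members. AT2G32150, of the haloacid dehalogenase-like hydrolases, read 8.10, 7.73 and 8.15 in white light, 8.61, 8.65 and 8.53 with ABA added, 7.16, 7.01 and 7.21 under far-red and 8.14, 7.97 and 8.09 under far-red with ABA. Its groups were ordered without overlap from white light with ABA at the top to far-red at the bottom, except that far-red with ABA and white light shared a range. UGT85A5 (AT1G22370), a glucosyltransferase, read 5.88, 5.37 and 5.71 in white light, 6.23, 5.90 and 6.15 with ABA added, 4.75, 4.65 and 5.23 under far-red and 5.12, 5.17 and 5.46 under far-red with ABA. This was a member with a large far-red effect at both ABA levels (-0.78 and -0.84), and its far-red groups with and without ABA overlapped. AT2G16790, of the gluconate kinase family, read 5.23, 5.19 and 5.31 in white light, 5.83, 5.54 and 6.04 with ABA added, 4.78, 4.67 and 4.85 under far-red and 5.53, 5.74 and 5.68 under far-red with ABA. Far-red with ABA lay above every white-light array in this gene and overlapped with white light with ABA.

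AT5G57040, of the glyoxalase I family, read 10.04, 9.72 and 10.04 in white light, 10.25, 10.21 and 10.11 with ABA added, 9.42, 9.39 and 9.47 under far-red and 9.96, 10.01 and 9.99 under far-red with ABA. White light and far-red with ABA overlapped, and the other groups did not. CYP71B26, a cytochrome P450, had far-red effects of -0.90 without ABA and -0.44 with it. AT5G43450, of the oxoglutarate-dependent dioxygenases, had ABA effects of 0.65 in white light and 0.71 under far-red, a difference with a 95% interval of -0.32 to 0.44. The nucleotide kinase AT3G60180 and the MATE-family transporter AT1G66760 lay near the limits, with averaged ABA effects of 0.39 and 0.40 and averaged far-red effects of -0.34 each.

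Protein turnover was represented by 4 named members. ATG8H, one of the ubiquitin-like proteins that coat autophagosomes, had ABA effects of 0.35 in white light and 0.60 under far-red, and far-red effects of -0.49 without and -0.24 with ABA. The aspartic protease AT1G62290 had an averaged ABA effect of 0.70 and the cathepsin-like protease AT1G02300 one of 0.60. Their averaged far-red effects were -0.36 and -0.46. AT1G24440, a RING-type protein of the kind that often acts in ubiquitin transfer, had far-red effects of -0.55 without ABA and -0.10 with it, the latter between -0.15 and -0.053 with an array left out.

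Regulators and other proteins with a known domain numbered 7. CCL (AT3G26740), whose transcript is known for rapid clock-dependent decay, read 11.09, 10.70 and 11.07 in white light, 11.25, 11.09 and 11.36 with ABA added, 10.30, 10.19 and 10.53 under far-red and 10.79, 10.67 and 10.89 under far-red with ABA. The top white-light array and the lowest array with ABA in white light were equal to 2 decimals, and the far-red arrays lay below both. AT5G60680, of a family linked to leaf senescence, read 7.43, 7.04 and 7.48 in white light, 7.58, 7.75 and 7.52 with ABA added, 6.47, 6.28 and 6.53 under far-red and 7.21, 7.30 and 7.31 under far-red with ABA. Each group with ABA lay above its light control, by 0.30 log2 units in white light (0.17 without white light replicate 2) and 0.85 under far-red. AT4G01390, of the TRAF-like family, read 7.35, 6.99 and 7.12 in white light, 7.30, 7.39 and 7.15 with ABA added, 6.04, 6.12 and 6.6 under far-red and 6.92, 7.0 and 7.32 under far-red with ABA. The groups with and without ABA overlapped in white light and lay apart under far-red.

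AT5G63190, of the MA3-domain proteins linked to translation, read 7.40, 7.20 and 7.29 in white light, 7.66, 7.76 and 7.61 with ABA added, 6.93, 6.91 and 7.06 under far-red and 7.47, 7.27 and 7.39 under far-red with ABA. Its ABA effect was 0.38 in white light and 0.41 under far-red, and its far-red effect -0.33 without ABA and -0.30 with it. AT2G23840, of the HNH endonuclease family, read 7.49, 7.01 and 7.57 in white light, 7.81, 7.66 and 7.22 with ABA added, 6.39, 6.13 and 6.51 under far-red and 6.90, 7.02 and 7.19 under far-red with ABA. Its white-light groups overlapped with each other, and both lay above their far-red counterparts. AT1G56220, of the dormancy- and auxin-associated family, had far-red effects of -0.82 without and -0.40 with ABA. The zinc-finger protein AT5G27280 had averaged effects of 0.62 and -0.47.

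The other 15 named members are given without a role. AT1G49500 read 9.53, 9.71 and 9.90 in white light, 10.41, 10.38 and 10.33 with ABA added, 8.83, 8.75 and 8.84 under far-red and 10.00, 9.94 and 10.06 under far-red with ABA. The far-red arrays of this gene lay close together and well below those of far-red with ABA. AT1G13990 read 6.91, 7.08 and 7.36 in white light, 7.61, 7.81 and 7.78 with ABA added, 6.33, 6.37 and 5.79 under far-red and 7.35, 7.40 and 7.26 under far-red with ABA. Its groups stood in the same order as those of AT1G49500, an order found in 58 of the 90 members. Far-red replicate 3 was its lowest array. AT2G15960 had the lowest averaged far-red effect of the named members (-1.05) and read 7.53, 6.78 and 7.95 in white light, 7.86, 7.38 and 7.96 with ABA added, 5.95, 5.78 and 6.18 under far-red and 7.14, 7.14 and 6.96 under far-red with ABA. Far-red without ABA was 2.74-fold below white light and far-red with ABA 1.58-fold below white light with ABA, and the white-light arrays were widely spread, with replicate 2 the lowest.

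AT1G01240 read 7.08, 6.8 and 7.70 in white light, 7.47, 7.60 and 7.26 with ABA added, 6.10, 6.17 and 6.16 under far-red and 6.70, 6.69 and 6.68 under far-red with ABA. The 3 arrays of far-red with ABA were nearly equal and lay below every white-light array. AT4G14270 read 7.86, 7.72 and 8.18 in white light, 8.63, 8.11 and 8.33 with ABA added, 7.20, 7.15 and 7.22 under far-red and 7.80, 7.38 and 7.81 under far-red with ABA. The far-red effect was -0.73 without ABA and -0.69 with it. AT1G76960 read 5.98, 6.39 and 6.28 in white light, 7.21, 7.64 and 7.20 with ABA added, 6.12, 6.21 and 5.49 under far-red and 6.59, 6.70 and 7.04 under far-red with ABA. It was called present on 1 of 3 arrays in each group without ABA and on 3 of 3 in each group with it, and its far-red and white-light arrays overlapped without ABA.

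AT5G16550 read 6.77, 6.63 and 6.76 in white light, 7.29, 7.22 and 7.12 with ABA added, 6.52, 6.15 and 6.64 under far-red and 6.67, 6.84 and 6.87 under far-red with ABA. Far-red and white light overlapped in this gene, by the reading of far-red replicate 3. AT5G18130 read 5.63, 5.51 and 5.61 in white light, 5.91, 6.22 and 6.32 with ABA added, 5.20, 5.16 and 5.14 under far-red and 5.53, 5.53 and 5.91 under far-red with ABA. It differed between the groups without ABA with no overlap, and the groups with ABA met at 5.91. The remaining 7 members without a role here (AT3G56360, AT1G56320, AT3G14595, AT3G07350, AT1G53560, AT3G53470 and AT5G59960) had averaged ABA effects between 0.37 and 0.53 and averaged far-red effects between -0.49 and -0.30.

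**Figure D3:**
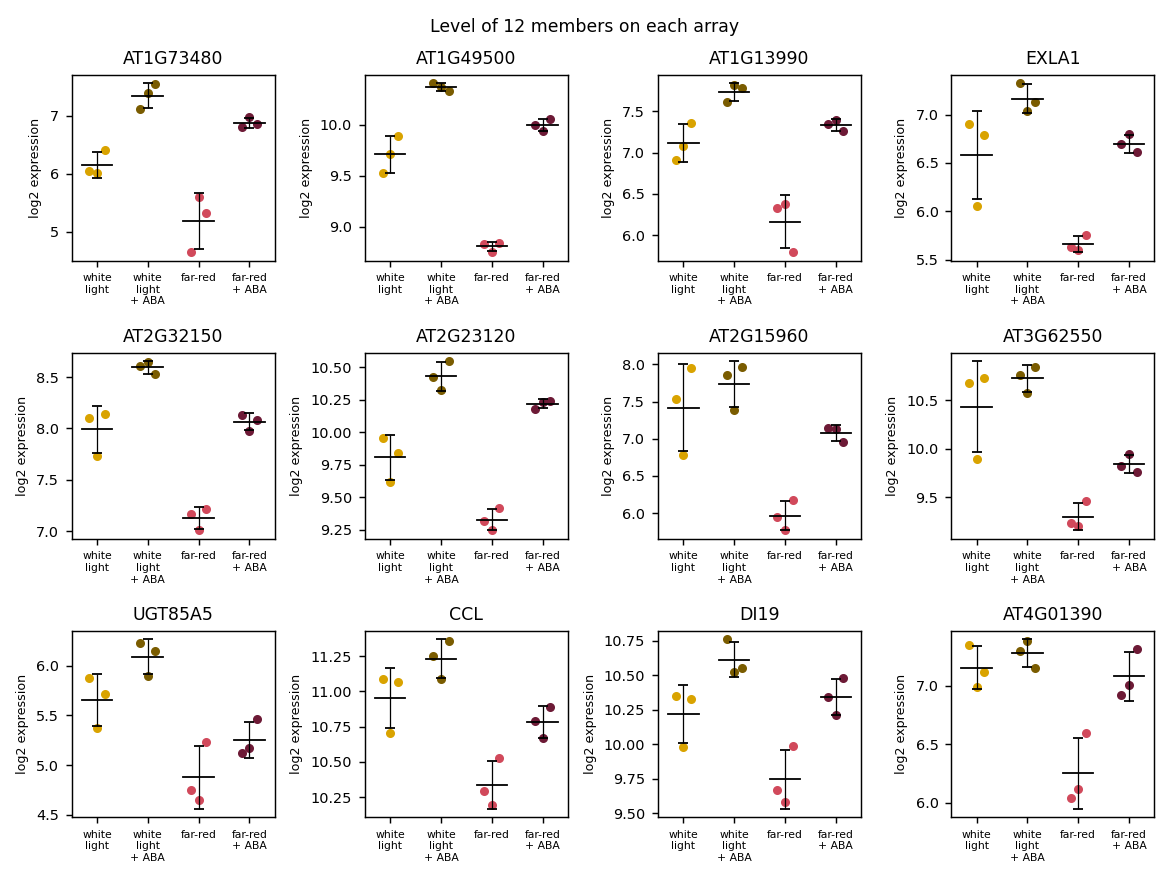
Log2 level of 12 of the 24 members given in full on each array, by group, with a line at the mean and bars of 1 SD (n = 3). In each panel the mean of white light with ABA stands highest and that of far-red lowest, and white light replicate 2 (the middle white-light point) is the lowest white-light array in every panel but those of AT1G49500 and AT1G13990.

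The 42 unnamed members had averaged ABA effects between 0.35 and 1.87 and averaged far-red effects between -1.98 and -0.30. The lowest far-red effect of all members was that of an unnamed probe set, at -2.55 log2 units without ABA and -1.41 with it, while its ABA effect was -0.01 in white light and 1.13 under far-red. Of the 3 members listed with 2 genes, 1 had the largest averaged ABA effect of all, 2.28.

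The interaction asks whether the ABA difference depends on the light. In limma no member was called (0 of 90, adjusted p of at least 0.561), and 0 of the 22746 probe sets were called in either direction (0%). At an unadjusted p under 0.05, 29 of the 90 members (32.2%) passed, 28 of them upward, against 1465 of all probe sets (6.44%), of which 513 upward (2.26%) and 952 downward (4.19%). The estimate was above 0 in 74 of the 90 members (82.2%) and in 46.3% of all probe sets, and its median was 0.27 log2 units in the members and -0.01 over all. Where ABA raises and far-red lowers a transcript, an interaction above 0 means that the ABA difference was larger under far-red. Equally, the far-red difference was then smaller with ABA. In other probe sets it means only that the ABA effect, taken with its sign, was higher under far-red than in white light. The median ABA effect of the members was 0.43 in white light and 0.65 under far-red, and the median far-red effect -0.56 without ABA and -0.36 with it.

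The members share arrays and do not count as independent: after removal of the group means a single component held 45.1% of their remaining variance. It held 46.3% in the probe sets raised by ABA with little far-red effect, 43.5% in those raised by both, 31.2% in those lowered by far-red with little ABA effect and 20.7% over all probe sets. Without white light replicate 3 the members at an unadjusted p under 0.05 numbered 15 in place of 29, and without white light replicate 2 they numbered 43. The median interaction lay between 0.24 and 0.35 when single arrays were left out, and was highest without white light replicate 2. In single genes it was less stable: a left-out array moved the estimate by over 1.5 times in 30 of the 45 named members and turned its sign in 7. The ABA effect in white light moved as far in 21 of 45 and the far-red effect with ABA in 12. With equal spread in the groups, the error of the interaction does not depend on the errors of the averaged effects that chose the members. That does not cover the limit on the highest group mean. The members' median SD was 0.21 in white light, 0.15 in white light with ABA, 0.18 under far-red and 0.11 under far-red with ABA. Over all probe sets the median SD was 0.11, 0.09, 0.11 and 0.11 in the same order. The part of the members' unequal spreads in the result was not tested.

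The largest interactions among named members were those of AT2G15960 and AT4G01390. AT2G15960 had an interaction of 0.80 (SE 0.31, 95% interval 0.14 to 1.46, limma adjusted p = 0.758), with an ABA effect of 0.31 in white light and 1.11 under far-red. Without white light replicate 2 its ABA effect in white light was -0.0041. For AT4G01390 it was 0.70 (SE 0.20, 0.27 to 1.14, limma adjusted p = 0.678), with ABA effects of 0.12 (0.040 without white light replicate 2) and 0.83. AT1G13990, AT5G60680, AT1G49500 and AT4G09760 followed at 0.55, 0.55, 0.54 and 0.52. That of AT1G13990 was 0.37 without far-red replicate 3. Of these AT1G49500 had the smallest SE (0.13, 95% interval 0.26 to 0.81, limma adjusted p = 0.572). None of these passed the adjusted threshold.

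At the other end, AT1G76960 had the lowest estimate among named members, -0.30 (SE 0.26, 95% interval -0.84 to 0.24, limma adjusted p = 0.883), which moved between -0.52 without far-red replicate 3 and -0.15 without replicate 2 of white light with ABA. AT5G16550, AT5G18130 and UGT85A5 were also below 0, at -0.14, -0.08 and -0.06. With an array left out AT5G16550 lay between -0.28 (far-red replicate 2) and -0.038 (far-red replicate 3), and the other genes changed sign. CSLA01 was also fitted below 0 and AT1G56320 above it. Both were called absent on all arrays of a group, so their levels there are uncertain and their estimates are not given. AT5G63190, at 0.03, had an interval of -0.24 to 0.29. Over the members the 95% interval reached a median of 0.39 to either side. Of the 45 named members 40 had an estimate above 0, of the 42 unnamed 31. The highest of all members was unnamed, at 1.14 (SE 0.29, 95% interval 0.54 to 1.75, limma adjusted p = 0.579). It was the probe set with the lowest far-red effect. The only member downward at an unadjusted p under 0.05 was also unnamed. It was called absent on all arrays of every group but white light with ABA, so its estimate is not given.

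**Figure D4:**
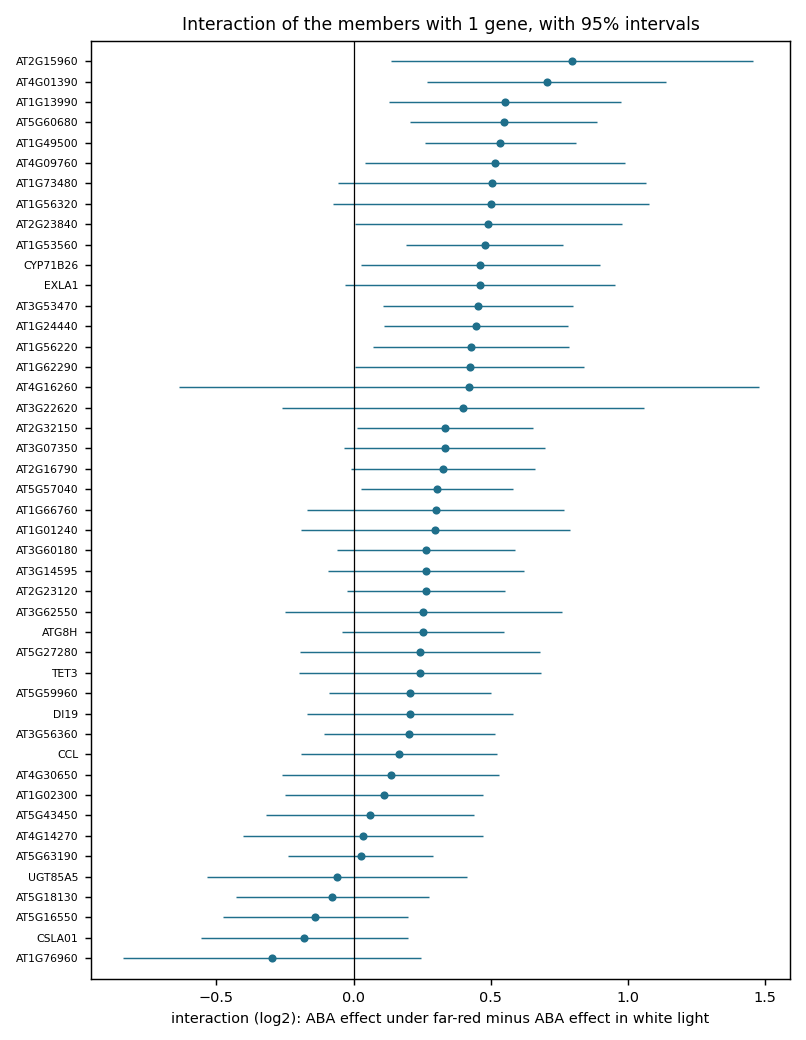
Interaction (ABA effect under far-red minus ABA effect in white light, log2) of the 45 members with 1 gene, as point estimates with 95% intervals from limma, ordered by size, with a line at 0. Estimates run from -0.30 to 0.80, 40 of 45 lie above 0, and 0 of them passed the adjusted threshold. The estimates of CSLA01 and AT1G56320 include groups called absent on all arrays.

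Beside the members were set 3 groups of probe sets that share a limit with them, with no test of the difference. Among 112 probe sets lowered by far-red at the same limit, with an averaged ABA effect under 0.1 in size, the interaction was above 0 in 77.7%, with a median of 0.18 and 18.8% at an unadjusted p under 0.05. Among 344 raised by ABA with a far-red effect under 0.1 in size, it was above 0 in 52.6%, with a median of 0.01 and 8.14% at that p. In 79 raised by both it was above 0 in 36.7%, with a median of -0.10 and 16.5% at that p, 12 of 13 downward. Over all probe sets it was above 0 in 46.3%, with a median of -0.01, so a larger share above 0 was not limited to the members.

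Genes of the surrounding pathways were read from lists, on the averaged effects, and none of the 45 members with 1 gene was in any of them. Measured means here matched to a probe set with a single name in the annotation used. Listed genes without such a name may still be on the array, among the 8730 probe sets not listed or those with several genes. The counts of measured genes therefore do not give the coverage of the array. The 42 unnamed members could not be matched, and the probe set listed with 2 genes that had the averaged ABA effect of 2.28 carries 2 genes of the ABA, cold and drought list. The 38 listed ABA receptors, phosphatases, kinases and ABF factors had 0 genes measured by a probe set with a single name in the annotation used. Of 45 ABA, cold and drought responsive genes 7 were measured, 6 of which rose with ABA (8.64% of all probe sets rose) and 1, COR15B, fell with far-red (3.98% of all fell). COR15B and COR47 met the limits that chose the members, so their directions are no independent evidence. The median effects of the 7 measured list genes were 1.72 for ABA and -0.17 for far-red, against -0.01 and 0.00 over all probe sets. COR15A, which protects chloroplast membranes in the cold, rose by 3.07 (SE 0.14, limma adjusted p = 1.7e-09) and had a far-red effect of -0.10 (adjusted p = 0.696). The dehydrin LTI30, at 2.70 for ABA, had a far-red effect of -0.27 (SE 0.19, adjusted p = 0.413). HIS1-3, a linker histone, had -0.17 and LEA4-5 0.14 for far-red, and neither passed. COR47 missed the far-red threshold (-0.33, SE 0.10, adjusted p = 0.0533).

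Of 5 measured flavonoid and anthocyanin genes 4 rose with ABA and 0 passed for far-red. DFR, the dihydroflavonol reductase, rose by 1.2 and had a far-red effect of -0.03. The list had a median interaction of -0.63, on the other side of 0 from the members, and 0 of its genes were called in the interaction. Among 3 measured shade genes IAA29, an auxin-inducible repressor, rose with far-red by 0.86 (5.3% of all probe sets rose) and YUC2 of auxin synthesis fell with ABA by 0.35 on the log2 scale (8.57% of all fell). The clock gene GI rose with far-red by 0.59 and COR27, a cold- and clock-regulated gene, fell by 0.64 on the log2 scale, with ABA effects of -0.22 and 0.05 that did not pass.

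In the 3 measured genes of sugar and starch metabolism, APL3 and APL4 of starch synthesis rose with ABA, APL3 also rose with far-red and DPE1 of starch breakdown fell with far-red by 0.25 on the log2 scale. Of 6 auxin response genes WES1 rose and GH3.3 fell with ABA, and WES1 and IAA29 rose with far-red. WSD1, the only measured gene of cuticle and lipid transfer, rose with both factors, and UGT71C5, 1 of 2 measured for ABA synthesis and breakdown, fell with both, calls that were lost under 9 and 11 of the alternatives. The single measured light-induced gene HYH, the single starvation gene AKINBETA1 and the 3 measured defence genes had 0 calls in either averaged effect. Of the probe sets called for far-red 57.1% were higher under far-red with the values as deposited and 28.8% after median centring of the arrays. No list gene called for an averaged effect lost that call after centring, and whether others gained one was not tested.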

How the data were processed

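Total RNA from aerial parts of seedlings was labelled with biotin and hybridised to 1-colour Affymetrix arrays, per the labels' protocols. The deposited log2 values per probe set are RMA values, and the submitters' processing notes also name affy and MAS5. RMA corrects background, equalises the distributions of the arrays and then combines the probes of each set, so uniform shifts between arrays are lost and low values are compressed. The deposited detection calls are present, marginal or absent. Neither tool versions nor a build were given in the sources used here. Of 22810 probe sets, 64 controls were left out.

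Gene names were taken from GEO's annotation of the platform, updated by gene identifier to RefSeq (TAIR10.1). It listed 13513 probe sets with 1 gene, 503 with several and 8730 not at all. All 45 members with 1 gene matched RefSeq, each by a different gene. Roles are background knowledge and were not taken from the files.

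The test was that of limma 3.58.1, run in R 4.3.3 (a mean per group on 12 arrays, contrasts, eBayes, Benjamini-Hochberg over all 22746 probe sets, two-sided, threshold 0.05). Residual and prior degrees of freedom were 8 and 7.21, and the number of arrays limits the precision (median SE of the interaction 0.144). The fit was also run on simulated data, with independent errors and planted interactions well above the median of the members. That setting lacks the component shared by arrays, so it does not show what the test can find at the size seen in most members. A gene called absent on all arrays of a group has only a bound there: on each array its value was raised, where lower, to that of the dimmest probe set with a present call, and the fold was taken against the mean of these. In CSLA01 this raised no value. Figures were drawn with matplotlib 3.10.9.

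The members and lists were chosen with earlier results of these data known. Values on every array are given for the named members with the 8 largest ABA effects, the 8 lowest far-red effects, the 6 largest and 6 lowest interactions and the 6 highest group means (24 genes), and up to 4 called genes of a list are named. Alternatives were 2 other scalings, a filter on present calls, a trended robust variance, array weights, a replicate block, the series value table (equal to within 5e-09) and each array left out. Promoter motifs were planned and are not analysed here, since no sequence was used.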

Additional observations from a re-analysis of the deposited data

How the results depend on the processing

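No member was called in the interaction by limma under any of the 19 alternatives (lowest adjusted p of a member 0.26). Over all probe sets 2 were called with a trended robust variance and between 0 and 2 when single arrays were left out (1 without white light replicate 3, 2 without far-red replicate 3). The probe sets called for the averaged far-red effect numbered 2110 as reported and between 1133 (without white light replicate 3) and 2571 (without white light replicate 2) with an array left out, also 1172 and 1227 without white light with ABA replicate 1 or 2, 1223 when far-red replicate 2 was left out and 1291 for replicate 3 of far-red with ABA. For the averaged ABA effect they numbered 3914 and between 3180 and 3794. The median interaction of the members was 0.27 as reported and 0.35 with each array centred on its median. Over all probe sets the median moved from -0.01 to 0.07, since centring adds the same amount to the interaction of every probe set. With an array left out the median of the members lay between 0.24 and 0.35, highest without white light replicate 2. The rule gave 22 members with both effects at least 0.5 in size, 173 with both at least 0.25, 101 with no floor on the level, 110 after median centring, 100 after quantile normalization and between 82 and 105 with an array left out, of which between 72 and 85 were among the 90. Apart from the uniform move under centring and the changed limits themselves, the cause of these shifts was not tested.

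The sign of the interaction was the same in 38 of 45 named members under each alternative in which they were tested (CSLA01 was not among those passing the filter on present calls). It turned in 7 with estimates near 0 or wide intervals, over left-out arrays, for AT4G14270 (-0.10 to 0.18), AT4G16260 (-0.039 to 0.95), AT4G30650 (-0.010 to 0.24), AT5G18130 (-0.20 to 0.0073), AT5G43450 (-0.10 to 0.21), AT5G63190 (-0.028 to 0.079) and UGT85A5 (-0.18 to 0.12). AT5G18130 was also at 0.0043 with each array centred on its median, and UGT85A5 at 0.021 with centring and 0.014 with quantile normalization. The replicate numbers are shared by the groups. Same-numbered arrays had deviations from the group means that correlated between -0.05 and 0.27, over 0.1 in 8 of 18 pairs. Of the 12 arrays, 12 correlated best with an array of their own number. The main fit does not take the numbers as pairs. The labels do not say what a shared number stands for, and it was not tested. With the replicate block 0 members were called in the interaction, with 35 in place of 29 at an unadjusted p under 0.05, and the median interaction stayed at 0.27. The lowest limma adjusted p of the interaction was 0.0798 with the block over all probe sets, in place of 0.4. Among the members it was 0.344 in place of 0.561. The block gave 2527 calls for far-red and 4186 for ABA. The list genes were run under the same alternatives after seeing the data: UGT71C5 lost its ABA call under 9 and its far-red call under 11, the replicate block among both, and no other list gene that was called lost a call. The planned promoter motif counts were not run.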

Other observations

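A group of 3 of the 45 named members lies close together in the RefSeq gene order, which was noticed after the values were seen and was not tested. Between AT1G56220, of the dormancy- and auxin-associated family, and DI19 (AT1G56280) there are 7 protein-coding genes, and between DI19 and AT1G56320 there are 3. Of those genes 5 were measured under a single name. Their averaged ABA effects lay between -0.11 and 0.13. AT1G56300, directly inside this stretch, had an averaged far-red effect of -1.08 and an ABA effect of -0.11, and the averaged far-red effects of the other 4 lay between -0.09 and 0.06. The member AT1G56320 was called present on 1 white-light array, 1 with ABA added, 0 under far-red and 2 under far-red with ABA. Its highest group mean, 5.12, lay just above the limit. Without replicate 3 of white light with ABA its averaged far-red effect was -0.21, outside the limit, and its far-red effect with ABA 0.17.

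Over all pairs of members the median correlation of deviations from the group means was 0.25, and 67.2% of the pairs were above 0, over 12 arrays that all pairs share. This was not computed for other sets.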
